A study of Homo sapiens with 3 samples.

Results

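Super-enhancers of KBM7 cells held 3545 H3K4me3 peaks narrower than 5000 bp, out of 36951 H3K4me3 peaks on chromosomes 1 to 22 and X. A peak was taken when it overlapped a region of the deposited super-enhancer table by at least 1 bp. The members were thus chosen on measured values: they were called in the H3K4me3 library, limited in width, and lay in regions that had been built and ranked on H3K27ac. They were compared with the 32748 H3K4me3 peaks under 5000 bp outside super-enhancers, and the 72 wider peaks inside super-enhancers were left out of both sets. KBM7 is a near-haploid human cell line from a chronic myeloid leukaemia with the BCR-ABL fusion, and the cells were wild type. The study made 3 ChIP-seq libraries of them, 1 for H3K27ac (Abcam ab4729), 1 for H3K4me3 (Millipore 07-473) and 1 of input DNA. With 1 library per mark no replicate error exists, and all intervals given are 95% intervals for counting error over peaks, which are not replicates.

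H3K4me3 is laid down on the histone H3 tail mostly at promoters in use, where it flanks the start of transcription, and is usually strongest at promoters rich in CG pairs. H3K27ac marks promoters and enhancers alike, and super-enhancers are long clusters of H3K27ac that often lie over or near genes that define a cell type. Enhancers carry mainly H3K4me1, and H3K4me3 within a super-enhancer may therefore mark a promoter that lies inside it or a low level of the mark on an enhancer itself.

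The sequences shown here are promoters whose start lies inside a member, running from 250 bases before the start to 50 bases from it on, taken from RefSeq (GRCh38.p14, the same build as hg38 of the files) and written 5′ to 3′ on the strand of the gene. They were picked after the values were seen, to set CG-rich beside CG-poor promoters, and capitals mark CG pairs. GAB2, which encodes an adaptor in BCR-ABL signalling, had a member of fold 88.8 (chr11:78417771-78418070, minus strand). MIDN encodes midnolin, a nuclear protein that carries other proteins to the proteasome, and its member had a fold of 98.9 (chr19:1249638-1249937, plus strand). CD34, the surface marker of blood stem cells, had a member of fold 41.9 at its start (chr1:207911076-207911375, minus strand). INPP5D encodes SHIP1, a lipid phosphatase of blood cells, and its member had a fold of 88.4 (chr2:233060092-233060391, plus strand). The lncRNA gene LOC124905134 had a member of fold 69.9 (chr22:46013331-46013630, plus strand). CD79A, part of the B cell receptor, had a member of fold 17.8 (chr19:41877029-41877328, plus strand).
GAB2: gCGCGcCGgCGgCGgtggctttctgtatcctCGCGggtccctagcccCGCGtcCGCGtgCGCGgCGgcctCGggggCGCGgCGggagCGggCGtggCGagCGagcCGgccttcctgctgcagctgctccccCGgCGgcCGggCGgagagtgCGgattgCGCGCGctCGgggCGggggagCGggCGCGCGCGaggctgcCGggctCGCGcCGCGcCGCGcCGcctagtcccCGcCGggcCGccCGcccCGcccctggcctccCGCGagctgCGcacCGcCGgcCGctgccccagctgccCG
MIDN: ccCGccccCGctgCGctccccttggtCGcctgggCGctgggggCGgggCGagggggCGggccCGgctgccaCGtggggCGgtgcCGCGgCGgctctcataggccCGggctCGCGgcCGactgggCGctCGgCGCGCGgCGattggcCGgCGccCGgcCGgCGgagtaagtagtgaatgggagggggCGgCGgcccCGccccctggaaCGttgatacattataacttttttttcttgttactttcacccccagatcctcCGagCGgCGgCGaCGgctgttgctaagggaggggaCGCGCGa
CD34: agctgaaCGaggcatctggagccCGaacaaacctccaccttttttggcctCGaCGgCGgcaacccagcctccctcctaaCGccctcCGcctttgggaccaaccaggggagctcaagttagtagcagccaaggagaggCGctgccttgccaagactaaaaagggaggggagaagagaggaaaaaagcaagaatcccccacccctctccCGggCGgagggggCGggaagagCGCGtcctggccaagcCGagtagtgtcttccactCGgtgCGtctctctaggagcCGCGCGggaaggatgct
INPP5D: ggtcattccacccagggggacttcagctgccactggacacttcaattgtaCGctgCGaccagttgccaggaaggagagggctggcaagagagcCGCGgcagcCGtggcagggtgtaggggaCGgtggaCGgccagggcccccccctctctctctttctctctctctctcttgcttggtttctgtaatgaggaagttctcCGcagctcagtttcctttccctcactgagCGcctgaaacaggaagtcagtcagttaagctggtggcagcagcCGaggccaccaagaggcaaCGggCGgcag
LOC124905134: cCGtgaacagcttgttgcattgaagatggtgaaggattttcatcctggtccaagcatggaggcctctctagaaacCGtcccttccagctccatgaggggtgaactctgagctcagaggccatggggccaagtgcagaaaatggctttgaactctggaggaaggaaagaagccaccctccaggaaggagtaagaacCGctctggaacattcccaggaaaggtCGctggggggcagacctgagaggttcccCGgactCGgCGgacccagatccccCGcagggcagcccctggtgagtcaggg
CD79A: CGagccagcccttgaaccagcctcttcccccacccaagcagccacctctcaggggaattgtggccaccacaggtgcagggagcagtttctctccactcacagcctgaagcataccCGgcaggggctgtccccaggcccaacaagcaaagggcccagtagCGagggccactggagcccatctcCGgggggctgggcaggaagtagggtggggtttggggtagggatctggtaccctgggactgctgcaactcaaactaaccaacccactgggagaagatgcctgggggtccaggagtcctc
GAB2 held 58 CG pairs in these 300 bases, MIDN 41, CD34 19, INPP5D 12, LOC124905134 8 and CD79A 4. INPP5D and GAB2 thus differ widely in CG pairs under nearly the same fold, while over all member promoters the number of CG pairs was higher in stronger peaks, as given with the promoter values further on.

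MicroRNA genes were a small further group. Of 1558 microRNA hairpins, 23 lay in super-enhancers and 10 overlapped a member, 3.05 per Mb of members against 3.96 per Mb of the H3K4me3 peaks outside. Among these are MIR223, a microRNA gene of myeloid cells, and MIR21, a microRNA gene that is active in many cancers. Their mature sequences from RefSeq are shown because they are the products of the 2 best known of these genes, with the seed (bases 2 to 8) in capitals.
miR-223-3p: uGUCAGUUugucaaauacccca
miR-21-5p: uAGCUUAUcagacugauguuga
The hairpin of MIR223 (chrX:66018870-66018979, plus strand) lay in a member of fold 52.5 and 4733 bp at the lncRNA gene MIR223HG, its host, in the super-enhancer ranked 7. The hairpin of MIR21 (chr17:59841266-59841337, plus strand) lay in a member of fold 64.4 and 4220 bp at the 3′ end of VMP1, an autophagy gene that overlaps it. The seeds of these microRNAs differ from each other and from those of the other mature microRNAs of the group. MIR7846 in TNFRSF1B and MIR5187 in TOMM40L lay in strong members at those genes (72.2- and 75-fold), whereas those of MIR4425, MIR4706, MIR6797, MIR4437 and MIR4645, at neither kind of end, had folds of 3.76 to 15.2.

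Most members were weak and lay away from annotated gene ends. A peak was placed at a gene end when it came within 1 kb of either end of the gene's RefSeq record. By that rule 357 members were at a protein-coding gene end, 10.1% (9.12 to 11.1), beside 38.1% (37.6 to 38.6) of the peaks outside and 35.4% of all peaks under 5000 bp. At a lncRNA end and no protein-coding end were 246 members, 6.94% (6.15 to 7.82), beside 6.16% (5.90 to 6.42) outside and 6.23% of all. The other 2942 members were at neither, 83.0% (81.7 to 84.2), beside 55.8% (55.2 to 56.3) outside and 58.4% of all. The share at lncRNA ends was therefore near that of all peaks, and the difference lay between protein-coding ends and neither. Of the 357 members at protein-coding ends, 67 were at a lncRNA end too, a count that was not made outside. Together the members covered 3.28 Mb of the 25.6 Mb of super-enhancers, and 40 crossed a super-enhancer's edge.

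The fold used throughout is the authors' enrichment at the summit of a peak over an expected background. Members had a median fold of 6.30 (6.12 to 6.50) with 26 fragments at the summit, and 13.8% (12.7 to 15) reached a fold of 20. Outside, the median fold was 10.9 (10.6 to 11.3) with 41 fragments, and 41.7% (41.1 to 42.2) reached a fold of 20, as did 38.9% of all peaks under 5000 bp. A start of RefSeq's promoter table lay in 251 members, 7.08% (6.28 to 7.97), against 31.4% (30.9 to 31.9) outside and 29.0% of all. That table gives no start on chromosome 8 and none for some other genes, so these shares are lower bounds.

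The libraries are bulk, so a low fold in few of the cells and in all of them cannot be told apart. The classes differed in strength. At protein-coding ends the median fold was 34.7 (20.5 to 42.3) inside super-enhancers and 57.4 (56.9 to 58.1) outside, with 140 and 242 fragments at the median summit. At lncRNA ends it was 9.29 (8.19 to 10.8) inside and 13.5 (12.3 to 14.7) outside. At neither it was 5.74 (5.60 to 5.92) inside and 5.82 (5.73 to 5.83) outside, where the intervals overlap. A fold of 20 was reached by 56.0% of members at protein-coding ends, 25.6% at lncRNA ends and 7.72% at neither, beside 82.8%, 40.7% and 13.7% outside. Widths followed the same order, with medians of 1808, 896 and 503.5 bp inside, and 2208, 828 and 428 bp outside.

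**Figure D1:**
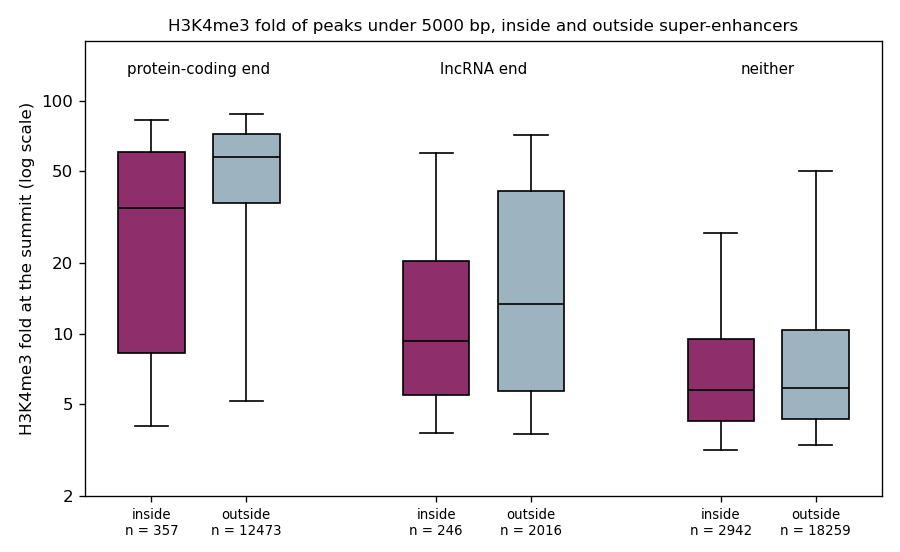
H3K4me3 fold at the summit (log scale) for peaks under 5000 bp in each class, inside super-enhancers and outside. Boxes span the quartiles with the median as a line, whiskers run from the 5th to the 95th percentile, and the box at protein-coding ends reaches far lower inside (lower quartile 8.21) than outside (36.2).

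The lower median at protein-coding ends came with a mixture of strong and weak peaks. Of the 357 members there, 90 had a fold of at least 60, 63 had a fold of 5 to 10 and 47 a fold under 5. RefSeq's strand placed 188 of them at a gene's start, with a median fold of 52.5 (46.9 to 57.9), beside 60.6 (60.0 to 61.1) at starts outside. At a gene's 3′ end lay 70, with a median fold of 8.34 (6.40 to 10.9), beside 7.29 (6.61 to 8.02) outside. For the other 99 the strand was not given, and their median fold was 20.2 (11.97 to 37.8), beside 49.7 (48.3 to 51.0) outside. At 231 members, 64.7% (59.6 to 69.5), no stronger H3K4me3 peak lay at the same gene, against 84.6% (84.0 to 85.3) outside. These had a median fold of 52.3 (49.99 to 56.7) inside and 61.6 (61.1 to 62.2) outside. The 126 weaker ones had a median of 7.90 (6.30 to 9.02) inside and 12.2 (10.9 to 13.5) outside. Another H3K4me3 peak at a protein-coding or lncRNA end, or of 5000 bp or more, lay within 5 kb of 52.9% (47.8 to 58.1) of members at protein-coding ends, against 28.8% (28.0 to 29.6) outside.

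The strongest members at protein-coding ends stood at genes of broad function as well as of blood. That at ATP5F1D, a subunit of mitochondrial ATP synthase, was the highest of the class with a fold of 99.6 and 290 fragments (chr19:1240941-1244462, 3522 bp). RNF144A, a ubiquitin ligase gene, had 96.9-fold and 298 fragments at its start. CAPZB, which encodes a protein that caps actin filaments, had 96.5-fold and 291 fragments, and CHD4, the remodelling enzyme of the NuRD complex, 95.5-fold and 278 fragments. The next were BAIAP2, an adaptor between small GTPases and actin (93.7), PTMS, which encodes parathymosin (93.4), ARHGEF1, an activator of the small GTPase RhoA in blood cells (92.6), and SEMA4D, a semaphorin of immune cells (91.4). Their summits held 273 to 301 fragments, close to one another, and the most for any member was 337. Small differences in fragments and in the expected background both enter their order by fold. The widest were RREB1, a zinc finger factor (4989 bp, 80.8-fold), PIK3CD, the delta catalytic subunit of PI3 kinase (4987 bp, 23.2-fold), IRF5, an interferon regulatory factor (4955 bp, 69.1-fold), and KLF9, a Krüppel-like factor (4870 bp, 72.6-fold). RREB1, PIK3CD and IRF5 were also the peaks just under the width limit. Just above it, and so not members, lay GLIPR1 (5011 bp, 29.8-fold), TXNIP (5068 bp, 49.5-fold) and SREBF1 (5074 bp, 84.6-fold).

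**Figure D2:**
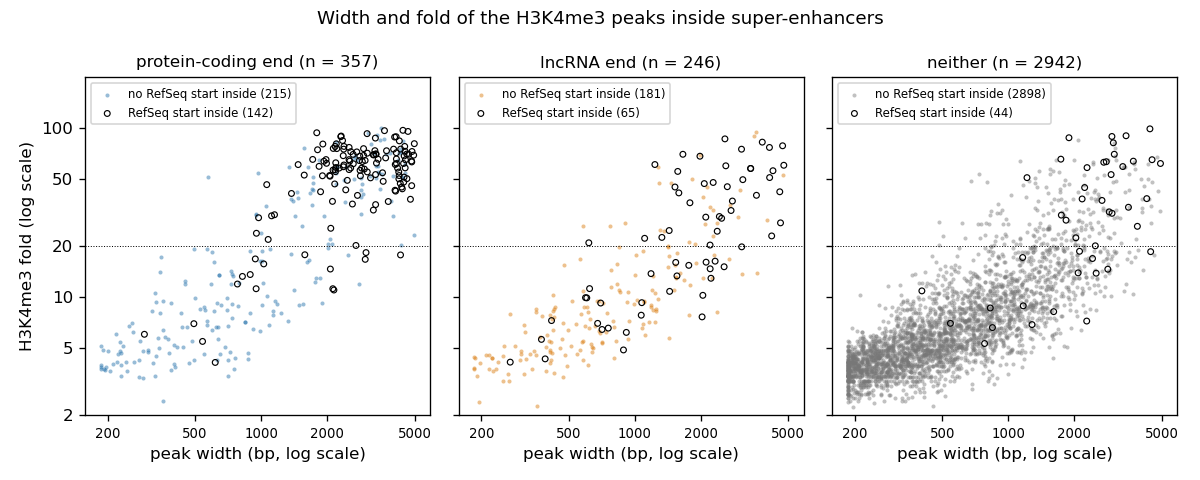
Width (bp) and H3K4me3 fold of each member, both on log scales, in 1 panel per class. Open circles hold a RefSeq start, and the dotted line marks a fold of 20: the 142 circles at protein-coding ends crowd at the upper right, while the 2898 members at neither without a start spread along a slope from narrow and weak to wide and strong.

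Of all 19974 protein-coding genes 294 had a member at an end, 1.47%, and 65.1% had H3K4me3 there outside super-enhancers alone. No H3K4me3 lay at the ends of 33.3%. On the lists of blood regulation the counts were 3 of 40, 3 of 22 and 3 of 30, on lists chosen with earlier results of these data known. Of the 40 haematopoietic transcription factor genes, 3 had a member, 2 had a peak of 5000 bp or more in a super-enhancer, 28 had H3K4me3 outside super-enhancers alone and 7 had none at an end. The 3 were NFE2, a factor of megakaryocytes and erythroid cells (72.1-fold, 263 fragments), RUNX1, a master factor of blood formation (71.4-fold, 269 fragments), and STAT5A, a mediator of cytokine and BCR-ABL signals. The member at STAT5A had a fold of 29.996 and lay at the adjoining 3′ ends of STAT5A and STAT3. Of 22 stem and progenitor genes 3 had one, namely CD34 (41.9-fold), BAALC, a gene of progenitors and acute leukaemias (49.0-fold), and SOX4, a factor of progenitor cells (19.2-fold, 495 bp). Of 30 genes of BCR-ABL, cytokine and survival signalling GAB2, STAT3 and PIK3CD had one. For PIK3CD the 23.2-fold peak is near the start of its record, while a further member of fold 60.2, placed at a lncRNA end, held another listed start of it.

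On each list of mature myeloid cells and of other lineages, 0 to 2 of 20 genes had a member at an end. Of all protein-coding genes 1.47% had one. None of 20 erythroid and megakaryocyte genes had a member at an end. No H3K4me3 lay at the ends of 12 of these, 13 of 20 granulocyte and monocyte and 7 of 20 B and T cell genes. Of all protein-coding genes 33.3% had none there. Of 20 granulocyte and monocyte genes 1 had a member, MPO, which encodes myeloperoxidase, with peaks of only 3.32- and 13.3-fold within 1 kb of its record. Of 20 B and T cell genes 2 had one: CD79A, and PAX5, the master factor of B cells, with 44.7-fold over 4367 bp. A 92.6-fold member in the same window of CD79A held a start of ARHGEF1 next to it. Of the defining markers, 2 of 8 for myeloid progenitors had a member (MPO and CD34) and the other 6 had H3K4me3 outside super-enhancers. All 5 erythroid markers had no H3K4me3 at an end, beside 33.3% of all protein-coding genes. B cell markers had H3K4me3 at 3 of 4, 2 of them through members. T cell markers had it at 3 of 4, epithelial at 2 of 3 and fibroblast at 2 of 3, none through members. These values were not used to name the cells.

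Members away from gene ends lay inside 10 of the 40 haematopoietic transcription factor genes, 5 of the 22 stem and progenitor genes and 6 of the 30 signalling genes, beside 390 of all protein-coding genes, 1.95%. Each list of 20 genes of mature myeloid cells or other lineages had 0. The Wilson interval of that share runs up to 16.1% and so holds the 1.95%. Gene length was not taken into account in these counts. RUNX1 held 9 such members, the strongest with a fold of 8.48, ETV6, a haematopoietic repressor, 22 (15.4), GAB2 15 (18.5) and IKZF1, which encodes Ikaros, 11 (10.1). ERG, an ETS factor of stem cells and megakaryocytes, held 14 with a strongest fold of 43.7. TAL1, a factor of blood and erythroid formation, held 1 of fold 59.0 beside its wide peak. ADGRG1, which encodes the adhesion receptor GPR56 of stem cells, had no H3K4me3 at the ends of its record but 3 members inside it, up to a fold of 52.8.

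At lncRNA ends, strength and width both went with the presence of a listed start. Of the 246 members there, 62 held a RefSeq lncRNA start and had a median fold of 22.4 (quartiles 10.4 and 46.4), and 181 held no start of the table and had 7.84 (4.95 and 13.4). Median widths were 2005.5 bp with a lncRNA start and 690 bp with no start, and the part of width was not tested. The remaining 3 held a start of a protein-coding gene alone. The highest was at LOC105376031, a lncRNA record inside PAX5, with 94.4-fold and 275 fragments (chr9:37024151-37027736), above the 44.7-fold at the start of PAX5 itself. Next came LOC124902868 in ATN1 (89.7), LINC01970 (86.2), LOC124902253 in AKNA (82.5) and LOC401261 in BICRAL (78.5), and those at AKNA and BICRAL also held starts of these protein-coding genes. NDST1-AS1 (76.7), LOC105372957 (74.9) and LOC124905134 (69.9) followed. No role is given here for these lncRNA records. Of the 25 non-coding genes listed, 3 had a member at an end, beside 1.22% of all lncRNA genes. H3K4me3 lay outside super-enhancers alone at 16, beside 23.8% of all lncRNA genes. At an end of 5 there was none, beside 74.9% of all, and 1 was not matched. The 3 with a member were MIR223HG (52.5-fold), LINC00899 (64.3-fold, in a member that also held a protein-coding start) and CCDC26, a lncRNA gene over the top-ranked super-enhancer (7.12-fold).

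At neither kind of end, 1742 of 2942 members lay in a protein-coding gene body (59.2%, 57.4 to 61.0), 281 in a lncRNA gene body alone and 919 in no gene (31.2%, 29.6 to 32.9). The shares in protein-coding bodies and between genes outside super-enhancers were 61.3% (60.6 to 62.0) and 30.8% (30.1 to 31.5), with intervals that overlap those inside. The median fold was 5.73, 5.24 and 5.92 in these 3 places. Within 5 kb of a peak at a gene end or of 5000 bp or more lay 21.5% (20.04 to 23), against 22.7% (22.1 to 23.3) outside. The median distance to such a peak was 18624.5 bp (17494 to 20274) inside and 25197 bp (24461 to 25987) outside. For those in no gene it was 16378 bp (14601 to 17722) inside and 32706 bp (31196 to 34295) outside. Members thus lay nearer by the median, while the shares within 5 kb had overlapping intervals.

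A RefSeq start lay in 44 of the members at neither, because starts inside a gene's record are not ends. They had a median fold of 31.6 (18.6 to 50.8) and a median width of 2456 bp, whereas the 2898 without a start had 5.73 (5.56 to 5.85) and 493.5 bp. Outside, 954 peaks at neither held a start, with a median fold of 51.0 (48.6 to 52.6). The highest were MIDN (98.9), TPM4, a tropomyosin gene (90.0), TSC22D3, which encodes the glucocorticoid-induced protein GILZ (89.1), TCEA2, a transcription elongation factor gene (87.6), and GNAI2, a G protein subunit gene (81.7). The widest member of the class, 4936 bp with a fold of 61.7, held a start of the lactate transporter gene SLC16A3. Further ones held starts of RAP1GAP2 (69.9), LAIR1, an inhibitory receptor gene of leukocytes (63.6), BCOR, a corepressor gene (63.2), and LTBR, a receptor gene of the TNF family (58.3).

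Strong members without a listed start numbered 199 of the 227 at neither with a fold of at least 20, 103 in gene bodies and 96 in no gene. At folds of 20 to 40, a start lay in 11 of 150 members at neither, against 154 of 1154 peaks outside. At 40 to 60 it was 5 of 50, against 252 of 758, and at 60 or more 12 of 27, against 352 of 586. PLCG2, a phospholipase gene of blood cell signalling, held the highest member without a listed start, with 84.8-fold and 295 fragments (chr16:81778706-81780789). The next lay 11378 bp from CD34 in no gene, with 81.6-fold and 281 fragments (chr1:207866547-207869593). Others in no gene lay 1919 bp from BCL9L, a cofactor of beta-catenin (75.7), 54076 bp from RREB1 (68.2) and 21447 bp from DDIT4, an inhibitor of mTOR (64.0). A pair lay 49094 and 67042 bp from SPN, which encodes CD43 (65 and 64.3). No listed start says only that the table used gives none there.

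Members at neither had H3K27ac beneath them by construction, since the regions were built on it. Of the 2942, 2930 overlapped an H3K27ac peak, 99.6% (99.3 to 99.8), against 78.5% (77.9 to 79.1) outside and 83.5% of all H3K4me3 peaks under 5000 bp. The H3K27ac peak beneath had a median fold of 20.5 inside and 9.91 outside, and 4025.5 and 1297 bp of width, which describes the choice. Within the same range of H3K27ac fold, taken at the summit of the overlapping H3K27ac peak, the members carried less H3K4me3. That summit lay a median of 371.5 bp from the H3K4me3 summit inside and 107 bp outside. Acetylation at the H3K4me3 peak itself was thus not matched. Where the H3K27ac fold was 20 to 30, H3K4me3 had a median fold of 6.66 (6.16 to 7.05) inside and 10.2 (9.71 to 10.9) outside. Where it was 30 or more, the medians were 7.53 (6.81 to 8.27) inside and 12.5 (10.7 to 14.9) outside, and 16.1% (13.4 to 19.3) against 41.4% (38.0 to 44.9) reached a fold of 20. Without the peaks that held a RefSeq start the difference was smaller but the intervals did not overlap in share: 14.4% (11.8 to 17.5) inside and 27.4% (24.1 to 31.1) outside, with median folds of 7.29 (6.62 to 8.03) and 9.04 (7.84 to 9.87). With those that held a start included, the H3K27ac peak of that strength had a median width of 6839 bp inside and 4416 bp outside. These medians count an H3K27ac peak once for each H3K4me3 peak on it. Of all members, 2104 shared an H3K27ac peak with another member, up to 9 on 1 peak. The part of this sharing in the difference was not tested.

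**Figure D3:**
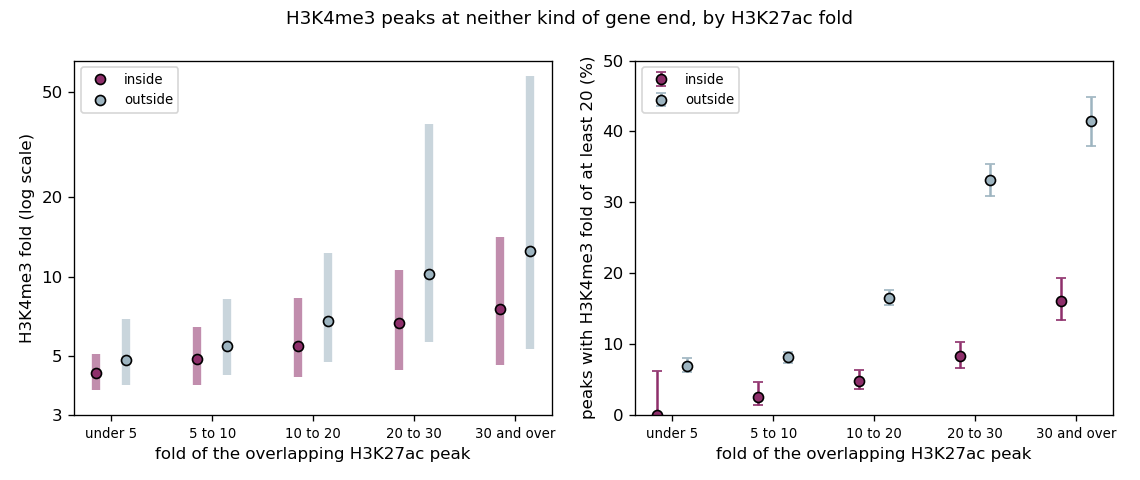
Peaks at neither kind of gene end, grouped by the fold of the H3K27ac peak they overlap, inside super-enhancers and outside. On the left, points are the median H3K4me3 fold (log scale) and bars the quartiles, and on the right, points are the share with an H3K4me3 fold of at least 20 and bars its 95% Wilson interval; in every group of H3K27ac fold the point inside is lower.

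Within the same ranges of H3K27ac fold, the median H3K4me3 fold was also lower inside at gene ends. These classes mix gene starts, 3′ ends and weaker side peaks, which were not split within the ranges. At protein-coding ends, peaks weaker than another at their gene made up 35.3% inside and 15.4% outside. With an H3K27ac fold of 10 to 20, members at protein-coding ends had a median H3K4me3 fold of 9.08 (7.45 to 13.3), against 56.7 (55.9 to 57.4) outside. With 30 or more they had 56.5 (47.3 to 61.8), against 73.0 (72.4 to 73.7) outside. At lncRNA ends with 30 or more the medians were 15.8 (12.9 to 29.7) inside and 51.7 (46.8 to 57.1) outside. The median distance between the H3K4me3 and H3K27ac summits was 151 bp (99 to 253) inside and 75 bp (71 to 78) outside at protein-coding ends, and 123 bp (78 to 200) inside and 83 bp (75 to 94) outside at lncRNA ends, where the intervals overlap. At neither it was 371.5 bp inside and 107 bp outside, beside the wider H3K27ac peaks inside.

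Only 15 members had no H3K27ac peak beneath them, 12 at neither and 3 at protein-coding ends. The strongest, with a fold of 19.2 and 65 fragments over 495 bp, lay 125 bp from the record of SOX4, on the side of its start. It was 45 bp from another H3K4me3 peak at a gene end or of 5000 bp or more. Those at the ends of CD69, an early activation antigen, and of BCAS1 had folds of 4.604 and 4.86. Among the 12 at neither the highest was in ZDHHC19, with a fold of 9.97.

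Every super-enhancer held at least 1 member, with a median of 6 (quartiles 4 and 8, range 1 to 24). Members at neither were in 519 of them, at protein-coding ends in 194 and at lncRNA ends in 142. In 242 super-enhancers, 45.5%, all members were at neither, and 199 of these had no wider H3K4me3 peak. The strongest H3K4me3 peak of a super-enhancer was at neither in 269, 50.6% (46.3 to 54.8), with a median fold of 15.2. It was at a protein-coding end in 142, with a median fold of 61.2, at a lncRNA end in 58, with 27.1, and a peak of 5000 bp or more in 63, with 62.4. In 211, 39.7% (35.6 to 43.9), no H3K4me3 peak of any width reached a fold of 20. The lowest by fold was 1 of those assigned to CSMD3, whose 1 member had a fold of 2.64 with 20 fragments over an H3K27ac peak of fold 20.7. By fragments others were lower, as the expected background enters the fold. The strongest peak had 12 fragments in that of MSN (4.38-fold) and 13 in that of NR5A2 (3.95-fold).

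Density varied with rank. In 4 groups of 133 super-enhancers from the highest ranks to the lowest, members per 100 kb numbered 12.6, 14.2, 14.9 and 15.3, while the median lengths were 72378, 44866, 36928 and 26893 bp. The share of members at protein-coding ends was 7.42%, 9.88%, 12.8% and 12.9% in the same order. The top 5 by rank, assigned to MYC, SATB1, SLC39A10, ETV6 and LIPC, held 16, 9, 18, 22 and 15 members and none at a protein-coding end. Their strongest members had folds of 27.3, 6.69, 16.8, 15.4 and 27.9. The most members lay in the super-enhancer of CD69 (24), followed by those of ETV6, ZNF217, MBP and MYH9 with 22 each. In that of CD69, 21 of the 24 had a fold under 10 and the highest was 20.9.

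The assigned target gene carried a member at an end within its own super-enhancer in 144 super-enhancers, 27.1% (23.5 to 31). In 37 its end carried a peak of 5000 bp or more there, and in 288, 54.1% (49.9 to 58.3), the H3K4me3 at its ends lay outside that super-enhancer. No H3K4me3 was at the target's ends in 44, and 19 had no matched target. Going by how the deposited table is named, targets were picked by the same TAD (topologically associating domain), closeness and expression. These counts therefore describe that choice.

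The super-enhancers of CD34, MIDN and ETV6 show the range. That of CD34 (117698 bp) held 21 members with a median fold of 5.37, of which 19 were under 10. The 2 above were the 81.6-fold peak in no gene and the 41.9-fold peak at the start of CD34. That of MIDN (35425 bp) held 10 members with a median fold of 53.2, 6 at protein-coding ends, 3 at lncRNA ends and that of MIDN at neither, and 1 was under 10. That of ETV6 (240669 bp) held 22, all at neither, with a median of 4.79 and a highest fold of 15.4, under H3K27ac peaks that numbered 102.

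**Figure D4:**
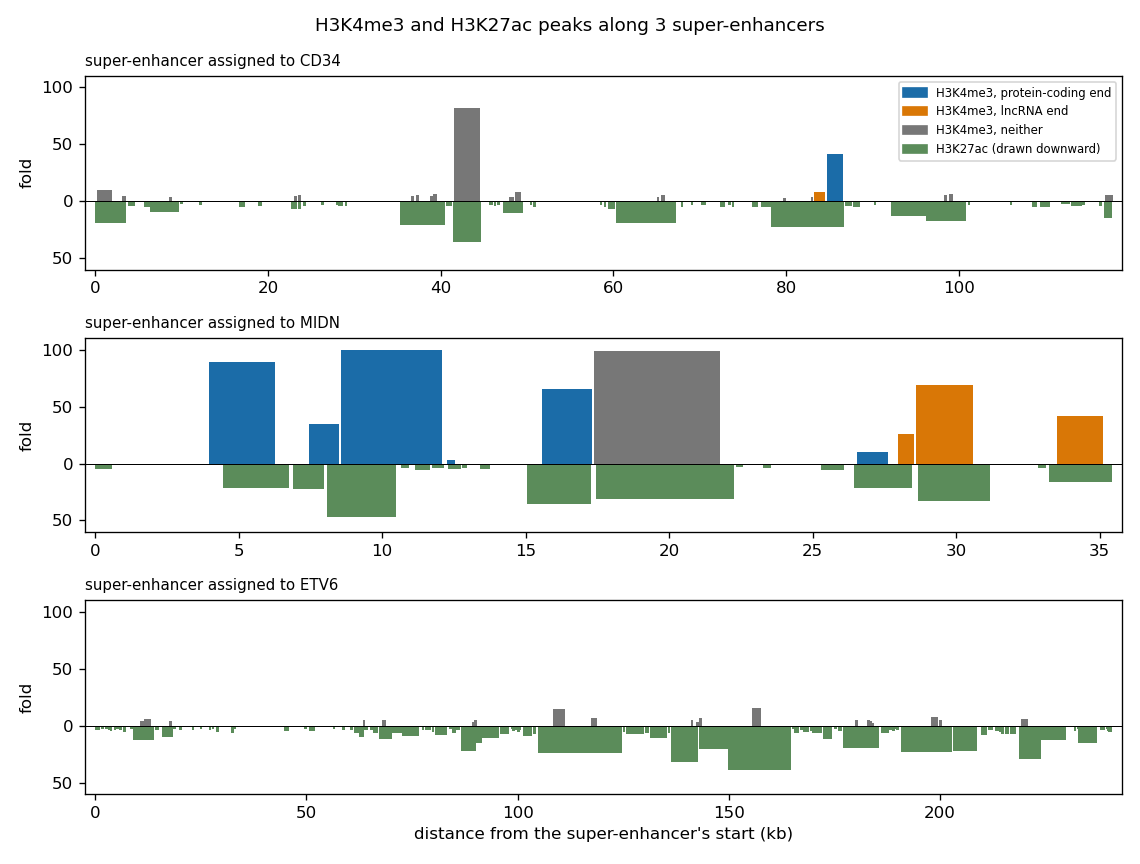
Peaks along the super-enhancers assigned to CD34, MIDN and ETV6, by distance from the super-enhancer's start (kb). Bars above the line are H3K4me3 peaks coloured by class, bars below it are H3K27ac peaks, both with the fold as height: CD34 has 2 tall H3K4me3 bars among 21, MIDN 9 of fold 10 or more among 10, and ETV6 none above 15.4.

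The promoters inside members were poorer in CG pairs than those inside other H3K4me3 peaks. RefSeq starts in members numbered 336, of 269 genes, and since several can fall in 1 peak, the start nearest the summit was taken for each of the 251 peaks. These promoters of 300 bases had a median of 17 CG pairs (11 to 22), against 28 (27 to 28) in 10277 peaks outside. A ratio of observed to expected CG of at least 0.6, a common mark of a CpG island, was reached by 48.6% (42.5 to 54.8) of them, against 86.0% (85.4 to 86.7) outside. Counting all starts, the medians were 19 inside, 27 outside, 14 over all 34789 promoters of the table and 4 where no H3K4me3 peak covered the start. By class, the starts in members at protein-coding ends had a median of 24 CG pairs (21 to 27), against 28 (27 to 28) outside. At lncRNA ends it was 8 (5 to 11), against 22 (21 to 23) outside, and at neither 8 (7 to 13), against 23 (22 to 25) outside.

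CG content went with strength in both sets. In members the median number of CG pairs was 4 under a fold of 20, 7 at folds of 20 to 40, 22 at 40 to 60 and 32 at 60 or more, against 12, 25, 27 and 30 outside in the same order. The share of promoters that reached the ratio was lower in members at each level of strength. Among peaks of fold 60 or more, 83.3% (74.3 to 89.6) of 90 member promoters reached the ratio, against 93.8% (93.1 to 94.4) outside. At folds of 40 to 60 it was 58.3% (45.7 to 69.9), against 88.4% (87.2 to 89.5), and at 20 to 40 it was 12 of 40 promoters (18.1% to 45.4%), against 76.6% (74.0 to 79.1). Under a fold of 20 it was reached by 0 of 61 member promoters, with a Wilson interval up to 5.92%, against 43.0% (39.8 to 46.2) outside. CD79A, with 4 CG pairs under a fold of 17.8, is 1 of these 61.

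**Figure D5:**
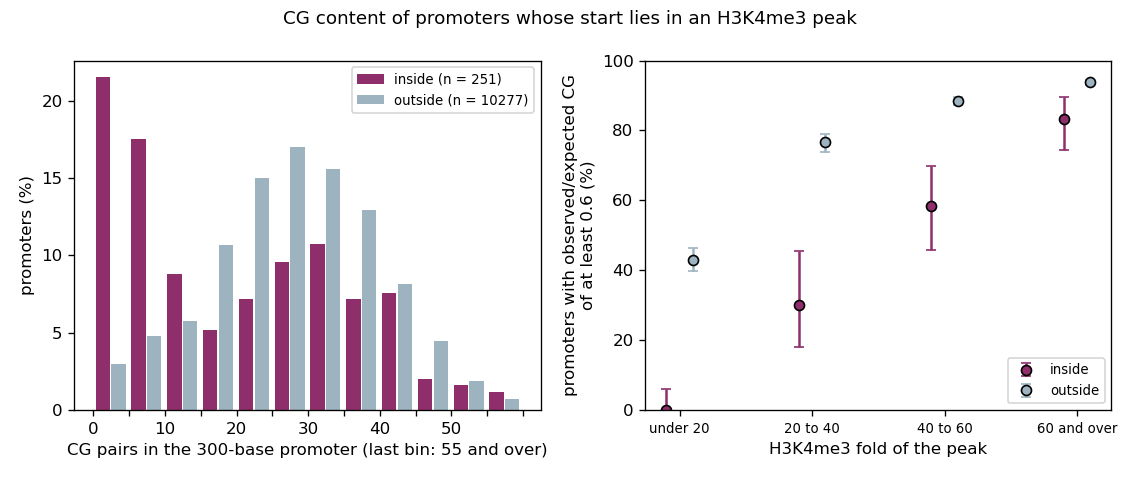
CG content of the promoter nearest the summit in 251 H3K4me3 peaks inside super-enhancers and 10277 outside. On the left, the share of promoters by number of CG pairs in 300 bases, and on the right, the share with a ratio of observed to expected CG of at least 0.6 by the peak's fold, with 95% Wilson intervals, which is lower inside in all 4 groups of fold.

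Short motifs were counted in the same promoters, on both strands and as exact letters. The letters TGTGGT, the core bound by RUNX factors, were in 17.5% (13.3 to 22.7) of the 251 member promoters, against 8.47% (7.94 to 9.02) of those outside and 13.1% of all promoters of the table. The letters TGACTCA, bound by AP-1 factors, were in 7.17% (4.58 to 11.05), against 2.93% (2.62 to 3.27) outside and 4.93% of all. CCGGAAG, bound by ETS factors, was in 11.2% (7.83 to 15.7), against 18.0% (17.2 to 18.7) outside and 10.2% of all. CCAAT was in 26.3% (21.2 to 32.1), against 33.6% (32.7 to 34.5) outside and 34.6% of all. For TATAAA the shares were 7.97% (5.22 to 11.99) and 4.61% (4.22 to 5.04), with 11.6% of all. For AGATAA, bound by GATA factors, they were 6.77% (4.27 to 10.6) inside and 4.25% (3.88 to 4.66) outside, with 10.4% of all, and for CACGTG, an E-box, 7.17% (4.58 to 11.05) inside and 9.60% (9.05 to 10.2) outside, with 7.24% of all. Base composition moves with these shares. Among promoters under the ratio of 0.6, TGTGGT was in 26.4% (19.5 to 34.6) of 129 inside and 17.2% (15.4 to 19.3) of 1434 outside, and TGACTCA in 13.2% (8.39 to 20.1) inside and 8.16% (6.85 to 9.69) outside. Among the rest, TGTGGT was in 8.20% (4.51 to 14.4) of 122 inside and 7.05% (6.53 to 7.60) of 8843 outside, and TGACTCA in 0.82% (0.14 to 4.50) inside and 2.08% (1.80 to 2.40) outside. Under the ratio, CCGGAAG was in 8.53% (4.83 to 14.6) inside and 9.48% (8.07 to 11.1) outside. Among the rest it was in 13.9% (8.89 to 21.2) inside and 19.3% (18.5 to 20.2) outside. Within these groups of CG content the intervals overlap for every motif counted, except for TGTGGT under the ratio of 0.6. A match is a description of letters and not of binding.

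The position of the mark around the start was alike inside and outside at protein-coding ends. The summit lay a median of 228 bp (192 to 279) downstream of the start nearest to it in members, against 222 bp (218 to 226) outside, and downstream in 85.2% of members, against 86.7% outside. At lncRNA ends the medians were 195 bp (139 to 259) inside and 138 bp (121 to 156) outside, with 81.5% (70.4 to 89.1) and 67.8% (64.5 to 71.0) downstream. At neither they were 206 bp (148 to 273) inside and 192 bp (180 to 202) outside.

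The background differed along the genome and enters the fold. On chromosome 8, which KBM7 is known to carry in more than 1 copy, the expected background of members had a median of 5.60 fragments, and on chromosome 15 it was 4.56, while on the other chromosomes it was 2.66 to 3.12. The 165 members at neither on chromosome 8 had a median fold of 4.92 with 31 fragments, below the 5.82 with 23 fragments of those elsewhere. Fold and fragments thus point opposite ways there, and the order of chromosomes by fold is not a result.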

How the data were processed

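KBM7 cells were profiled by ChIP-seq with 1 library each for H3K27ac, H3K4me3 and input. The submitters' processing notes name Bowtie2 2.3.4, bedtools 2.20.1 and hg38, while the peak caller and the reads per library are not stated. In each peak list the authors deposited a score, a fold at the summit (a ratio over an expected background) and −log10 p-values and q-values, and the lists end near a q of 0.05. The deposited super-enhancer table gives summed signal of H3K27ac and of input per region, on a scale that is not stated, and here only the regions, their ranks and their targets were used. Each list rests on 1 library, so nothing was pooled.

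The members and the gene lists were chosen with earlier results of these data known. Fold and −log10 p gave, for 100% of rows within a tolerance of 0.01, a whole number of fragments at the summit and the expected background, which measure depth. Overlaps were computed with pandas 2.3.3 and numpy 2.4.6 and tested on simulated data. Gene ends, starts, promoters and microRNAs came from RefSeq tables of GRCh38.p14 (19974 protein-coding and 18177 lncRNA records on these chromosomes). Strand was known for 15812 and 11383 of them through the promoter table. Shares have Wilson intervals and medians have order-statistic intervals, both at 95% and for counting error only. No test was run, since each mark has 1 library. Named at protein-coding ends were the 8 highest folds, the 4 widest and genes of the 7 lists. At lncRNA ends these were the 8 highest and the listed genes, and at neither the 8 highest and the 4 widest. Super-enhancers named were those with most members and the top 5 by rank. Members at 3′ ends, at starts inside genes, without a listed start or without H3K27ac, the mapped super-enhancers and the sequences shown were chosen after their values were seen. Alternatives changed the list cut-off, overlap, window, gene positions, width limit and chromosomes.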

Additional observations from a re-analysis of the deposited data

Results flagged for a closer look

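The H3K4me3 list also holds 45 peaks on 16 unplaced or unlocalised sequences, which no comparison used. They drew attention as signal in data that were left aside, the highest with a fold of 49.3, and the super-enhancer rule was not applied to them.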

How the results depend on the processing

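Of 64 values recomputed under an alternative, 48 stayed within their interval or, for counts, within 1.5 times, and 16 did not. With the top 50% of the H3K4me3 list by fold, members numbered 1029, of which 113 were at lncRNA ends and 670 at neither. The share at protein-coding ends was then 23.9%, the median folds were 52.3, 22.9 and 16.2 at protein-coding ends, lncRNA ends and neither, and 100% at neither overlapped H3K27ac. These follow from the alternative's own construction, which drops weak peaks. With a −log10 q of at least 5, the share at protein-coding ends was 11.3%, the median fold at neither 6.76 and the share with H3K27ac 99.8%. A window of 500 bp gave a share at protein-coding ends of 8.60% and a median fold there of 43.0. Listed gene starts in place of both ends gave a median fold there of 43.0. Without the width limit the share at protein-coding ends was 11.2%. The 404 peaks there then had a median fold of 41.6, near the upper bound of the main interval. Peaks outside super-enhancers were not recomputed without the limit. With the top 50% of the H3K27ac list by fold, 98.7% of members at neither overlapped H3K27ac. Without chromosome 8, and with most of the peak required inside, no value left its interval. No paired analysis was possible because each mark has 1 library. Depth limits the weak members, whose calls rest on as few as 9 fragments.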
